A study of Mus musculus with 7 samples.

Results

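The interleukins and their receptors were taken as every row of the count table whose gene symbol starts with Il and a digit, without Il3ra, Il5ra and Il7r. The pattern matched 82 symbols, and 79 of the 34305 rows of the table remained: 39 ligands, 38 receptor chains and 2 other genes, Il18bp and Il4i1. RNA was measured in 7 libraries from mouse HSPCs (haematopoietic stem and progenitor cells) grown in culture, a mixed population of blood-forming cells. In 3 libraries (MN1) the cells overexpressed MN1, a transcriptional co-regulator and oncogene of acute myeloid leukaemia; in 3 (MN1pQdel) they overexpressed MN1 without its polyglutamine stretch, and the 1 library noTD came from untransduced cells. Transduced cells received a plasmid and were sorted. All cells shared a medium that contained interleukin-3, interleukin-6 (10 ng/mL) and stem cell factor (20 ng/mL), and per the labels RNA was taken after 7 to 9 days. The source field of the noTD library reads transduced, against its title and its overexpression label, which give none. The sources used here give no strain, age or donor animals and no promoter for the plasmid. The series design gives 3 independent samples for each transduced group. Nothing says that the 3 libraries of a group came from separate animals, so p-values measure only how these samples spread, which may be technical.

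Interleukins are secreted signals between blood cells. Most bind a ligand-specific receptor chain that pairs with a shared one, such as Il2rg (the common gamma chain) or Il6st (gp130), and signal through JAK kinases and STAT factors. The IL-1 family (IL-1, IL-18, IL-33, IL-36) instead signals through receptors with a cytoplasmic TIR domain, the adaptor Myd88 and IRAK kinases, and is held in check by a receptor antagonist (Il1rn), a decoy receptor (Il1r2) and a binding protein (Il18bp). Myeloid progenitors and mast cells both make and receive these signals.

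Levels are CPM, with library sizes corrected by TMM over the 7 libraries. Library totals lay between 38210660 and 67728658 counts, and 1 count was worth 0.0163 to 0.0274 CPM. Mn1 itself stood at 314, 287 and 288 CPM in MN1, at 691, 404 and 728 CPM in MN1pQdel and at 33.6 CPM in noTD, so the MN1 libraries carried less Mn1 RNA than the MN1pQdel libraries (log2 fold change -1.05 ± 0.23 SE, edgeR adjusted p 0.028). The progenitor markers Kit (237 to 431 CPM in MN1, 248 to 875 CPM in MN1pQdel, 605 CPM in noTD) and Cd34 (527 to 650, 160 to 261 and 301 CPM) were present in every library. Of 8 progenitor markers, 3 rose in MN1: Cd34, Meis1 and Flt3, the last at 64.4 to 111 CPM in MN1 and 0.248 to 7.00 CPM in MN1pQdel. The others lay lower in MN1 without passing. Their log2 fold changes were -0.96 for Gata2, -0.78 for Kit, -0.44 for Slamf1, -0.31 for Mecom and -0.15 for Ly6a. The median over the 8 was -0.23. Of 4 genes of all blood cells, 4 fell (Ptprc, Spi1, Laptm5, Coro1a), as did 6 of 11 monocyte and macrophage markers. The summed markers of mature granulocytic cells differed between the groups and also within MN1pQdel. Mast cell markers summed to 1416 to 3476 CPM in MN1, to 14089 and 16607 CPM in MN1pQdel replicates 1 and 3, to 2672 CPM in MN1pQdel replicate 2 and to 14463 CPM in noTD. Eosinophil markers summed to 12.6 to 20.2 CPM in MN1, 233 CPM in MN1pQdel replicate 2, 3327 and 3549 CPM in MN1pQdel replicates 1 and 3 and 3719 CPM in noTD. Of the markers tested, 5 of 10 for mast cells and 6 of 7 for eosinophils fell in MN1. Neutrophil markers, 11 of 11 of which fell, at 4306 to 7894 CPM in MN1 and 26523 to 36844 CPM in MN1pQdel, separated the groups in every library. These are bulk libraries, in which fewer cells of a type and less RNA per cell cannot be told apart. The part of these markers in the values that follow was not tested.

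Of the 79 genes, 21 had fewer than 10 counts over the 7 libraries together, 10 of them no count at all, and 49 passed the filter on low counts (17 ligands, 30 receptor chains and both other genes); 9 with 10 or more counts did not pass. The 49 were read within edgeR's quasi-likelihood test over all 14808 genes that passed, adjusted by Benjamini-Hochberg, at a threshold of 0.05. Of these 49, 3 rose in MN1 against MN1pQdel, which is 6.12%, beside 6.08% of all genes tested, and 8 fell, which is 16.3%, beside 11.1% of all genes tested. With libraries scaled by their totals alone, 5 rose (10.2%) and 6 fell (12.2%), beside 12.5% and 7.7% of all genes tested. The 3 genes that rose were receptor chains (Il9r, Il17re, Il31ra); those that fell were 3 ligands (Il1f9, Il17c, Il16) and 5 receptor chains (Il4ra, Il1r2, Il6ra, Il18rap, Il17ra). The median log2 fold change was -0.35 over the 17 ligands and -0.18 over the 30 receptor chains, beside -0.01 over all genes tested, and the last value moved to 0.19 with library totals alone. Groups did not overlap for 11 of the 49 genes with MN1 higher and for 12 with MN1 lower, beside 21.9% and 21.7% of all genes tested.

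**Figure D1:**
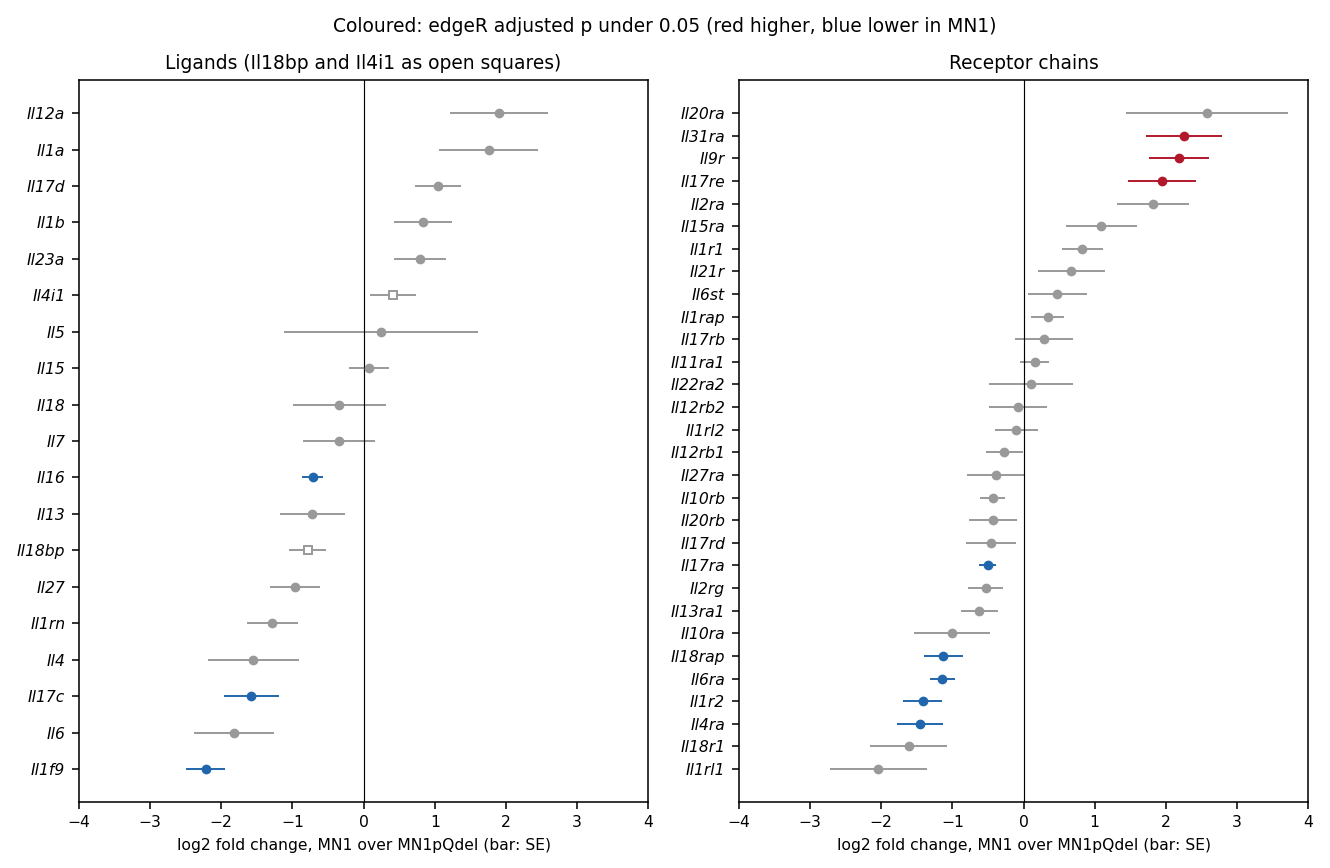
Log2 fold change of MN1 over MN1pQdel (points) with its standard error (bars) for the 49 tested genes, ligands and the 2 other genes at the left and receptor chains at the right. Red and blue points passed the edgeR threshold of 0.05, and the widest bars are those of Il5 and Il20ra, which did not pass.

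Levels between genes are compared per kilobase of the longest principal transcript. On that scale the mean over the 7 libraries was 210 CPM per kb for Il1rl1, the receptor for IL-33, followed by Il2rg at 88.9, Il4ra at 45.9, Il6 at 45.1, Il1b at 44.0 and Il1r2 at 36.2 CPM per kb. Il1rl1 and Il2rg led in each group, and the order after them differed: Il1b was the third in MN1 (45.0 CPM per kb) and in noTD (98.3 CPM per kb) and Il6 in MN1pQdel (64.3 CPM per kb). Il6 stood at 18.4 CPM per kb in MN1, below Il10rb (24.0), Il4ra (20.6) and Il1a (20.3). Il1rl1 alone held 18.5% to 33.3% of all counts on the 79 genes in MN1, 26.5% to 62.8% in MN1pQdel and 45.0% in noTD. Receptor chains summed to 1269, 875 and 1292 CPM in MN1, to 2878, 1367 and 4174 CPM in MN1pQdel and to 3189 CPM in noTD. Without Il1rl1 the sums were 754, 678 and 794 CPM in MN1, 1291, 921 and 1295 CPM in MN1pQdel and 1508 CPM in noTD. Ligands summed to 271, 185 and 264 CPM in MN1, 338, 307 and 402 CPM in MN1pQdel and 530 CPM in noTD. In all of these sums every MN1 library lay below every MN1pQdel library, and MN1pQdel replicate 2 was the lowest of its group.

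**Figure D2:**
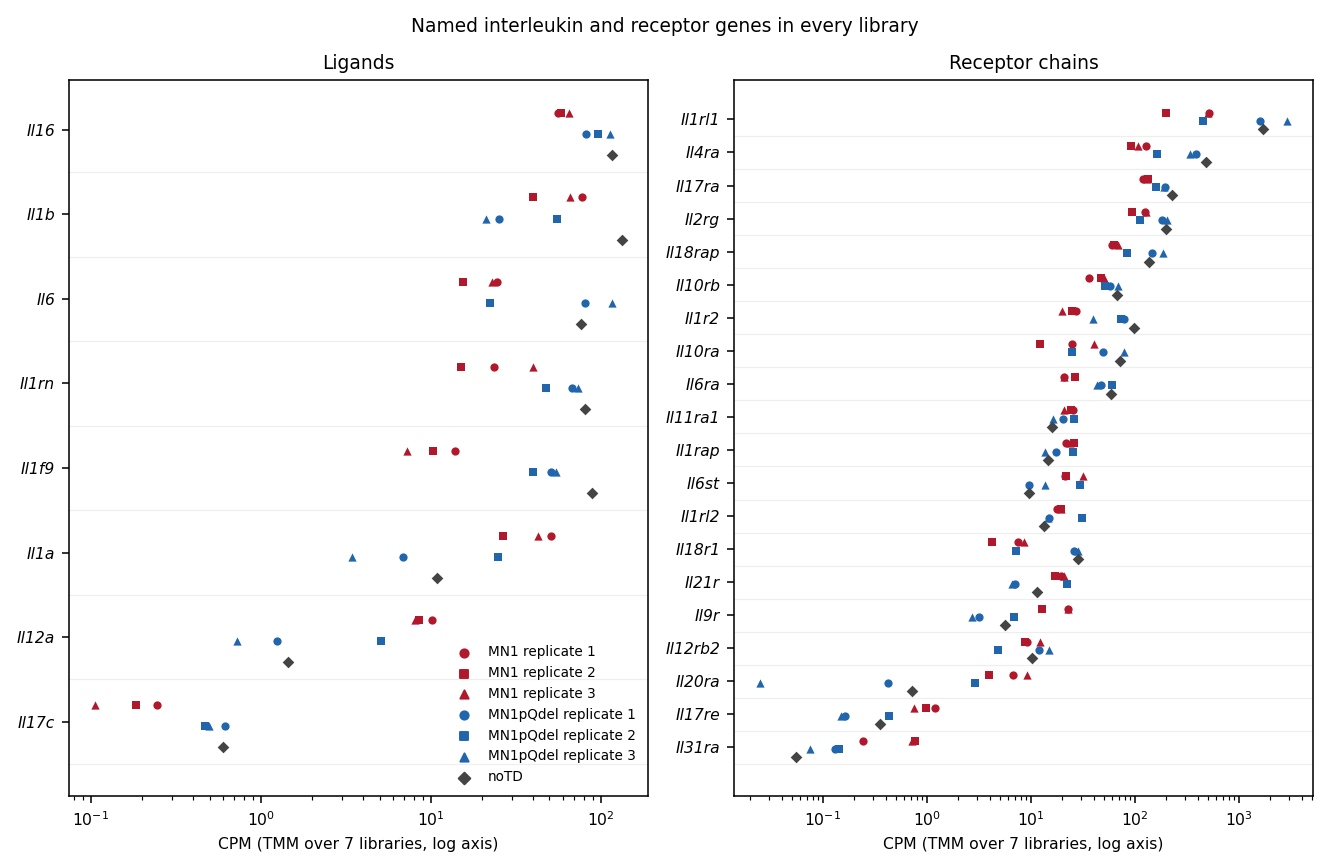
CPM on a log axis of the 8 ligands and 20 receptor chains chosen by the naming rule, 1 point per library (red MN1, blue MN1pQdel, dark diamond noTD; circle, square and triangle for replicates 1, 2 and 3). For Il1f9 the MN1 points lie at 7.21 to 14.0 CPM and the MN1pQdel points at 40.0 to 54.5 CPM, while for Il6 the square of MN1pQdel replicate 2 lies next to the MN1 points.

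Among the ligands, the fall of Il1f9 was the largest. Il1f9 (chromosome 2, 24186476 to 24193568, plus strand, GRCm38, protein coding) encodes IL-36 gamma, an IL-1 family cytokine. It stood at 14.0, 10.3 and 7.21 CPM in MN1, at 51.4, 40.0 and 54.5 CPM in MN1pQdel and at 88.5 CPM in noTD. All MN1 libraries lay below all MN1pQdel libraries, and noTD lay above both groups. The log2 fold change was -2.22 ± 0.27 (SE), which is 4.66-fold lower, with an edgeR adjusted p of 0.00616. It passed the threshold in each of the 6 fits that left out 1 library, with log2 fold changes from -2.48 to -2.0. Its receptor chain Il1rl2 did not pass: 17.8, 19.6 and 19.2 CPM in MN1, 15.0, 30.9 and 14.5 CPM in MN1pQdel and 13.4 CPM in noTD, a log2 fold change of -0.10 ± 0.31 (edgeR adjusted p 0.83). The sign of that Il1rl2 value turned to 0.36 without MN1pQdel replicate 2 and to 0.08 when libraries were scaled by their totals alone.

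The promoter of Il1f9 is shown with those of Il6ra and Il9r because these genes gave the lowest adjusted p among ligands, among receptor chains that fell and among receptor chains that rose, and with that of Il1rl1, which had the highest level. The sequences are the 250 bases upstream of an annotated start from the RefSeq promoter table (GRCm38.p6), written in the direction of transcription. Capitals mark matches, on either strand, to TTCNNNGAA, the palindrome bound by STAT dimers, or to AGATAA, which GATA factors bind.
Il1f9 (chr2:24186226-24186475, plus strand): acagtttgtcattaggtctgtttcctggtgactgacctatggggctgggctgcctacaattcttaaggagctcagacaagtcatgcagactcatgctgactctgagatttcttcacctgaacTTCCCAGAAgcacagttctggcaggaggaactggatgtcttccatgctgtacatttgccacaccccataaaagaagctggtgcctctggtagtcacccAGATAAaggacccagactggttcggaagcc
Il6ra (chr3:89913197-89913446, minus strand): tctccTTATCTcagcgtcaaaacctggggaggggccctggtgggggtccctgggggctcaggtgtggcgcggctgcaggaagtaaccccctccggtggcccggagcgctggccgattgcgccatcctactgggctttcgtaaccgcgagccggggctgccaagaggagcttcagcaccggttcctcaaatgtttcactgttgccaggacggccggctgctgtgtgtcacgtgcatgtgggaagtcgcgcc
Il9r (chr11:32200280-32200529, minus strand): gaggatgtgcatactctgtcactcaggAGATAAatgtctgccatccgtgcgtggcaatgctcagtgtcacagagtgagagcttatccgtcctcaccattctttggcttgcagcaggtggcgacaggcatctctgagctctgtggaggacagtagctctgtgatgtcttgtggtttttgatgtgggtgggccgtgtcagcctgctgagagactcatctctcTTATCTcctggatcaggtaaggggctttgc
Il1rl1, distal start (chr1:40429320-40429569, plus strand): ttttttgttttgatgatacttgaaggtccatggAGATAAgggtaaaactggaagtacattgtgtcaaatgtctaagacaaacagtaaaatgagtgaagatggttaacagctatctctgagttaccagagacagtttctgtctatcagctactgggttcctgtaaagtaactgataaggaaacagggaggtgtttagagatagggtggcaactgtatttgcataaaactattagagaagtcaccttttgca
The motif AGATAA was found in all 4 windows, once in Il1f9, Il6ra and Il1rl1 and 2 times in Il9r, and TTCNNNGAA once, in Il1f9. The table held 77 promoters of 62 of the 79 genes, and 32851 promoters in all. AGATAA was found in 15.6% of the 77 and in 9.99% of all promoters, TTCNNNGAA in 9.09% and 7.02%, the AP-1 motif TGAGTCA in 14.3% and 4.46%, and the NF-kappa-B consensus in 6.49% and 3.9%. The motifs did not overlap one another in the windows shown, and a match is a description of the letters, not of binding. The motifs were chosen with the results known, and the NF-kappa-B consensus was taken after narrower forms of it had been searched.

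The other ligands that fell were Il16 and Il17c. Il16 (chromosome 7, 83642825 to 83745726, minus strand) encodes a chemoattractant that binds CD4, and its exons overlap Stard5 on the opposite strand. It stood at 55.8, 58.7 and 65.4 CPM in MN1, at 82.0, 97.0 and 114 CPM in MN1pQdel and at 117 CPM in noTD, with every MN1 library below every other library. Its log2 fold change was -0.72 ± 0.14 (edgeR adjusted p 0.0233). It was called in 2 of the 6 fits with 1 library left out, with adjusted p between 0.0144 and 0.0964. It was not called with library totals alone (edgeR adjusted p 0.059) or without replicate 2 of both groups (0.0538). Il17c (chromosome 8, 122422020 to 122423639, plus strand) encodes a cytokine that acts through Il17re. It was rare, at 10, 8 and 5 counts in MN1 (0.244, 0.185 and 0.106 CPM), 38, 23 and 20 counts in MN1pQdel (0.618, 0.471 and 0.497 CPM) and 22 counts in noTD (0.603 CPM). The MN1 libraries lay below all others, and the log2 fold change was -1.58 ± 0.39 (edgeR adjusted p 0.0371). Only the fit without MN1pQdel replicate 2 kept the call among the 6 leave-out fits (adjusted p 0.0266 to 0.136). Il17c passed the filter on low counts only through MN1pQdel, where it was higher. It was not called without that filter (edgeR adjusted p 0.0542) or without replicate 2 of both groups (0.0613).

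Of the ligands chosen by the naming rule, Il6 and Il1rn lay just outside the threshold. Il6 (chromosome 5, 30013114 to 30019981, plus strand) encodes interleukin-6, which is also in the medium. It stood at 24.5, 15.5 and 23.1 CPM in MN1, at 80.5, 22.3 and 117 CPM in MN1pQdel and at 76.6 CPM in noTD. MN1pQdel replicate 2 lay inside the MN1 range, and the other MN1pQdel libraries and noTD lay above all MN1 libraries. The log2 fold change was -1.82 ± 0.56 (edgeR adjusted p 0.0652), and the adjusted p was 0.0422 with the replicate number as a block and 0.00155 without MN1pQdel replicate 2. Il1rn, the IL-1 receptor antagonist, stood at 23.6, 15.0 and 40.0 CPM in MN1, at 68, 47.7 and 73.5 CPM in MN1pQdel and at 80.4 CPM in noTD. The groups did not overlap, and its log2 fold change was -1.28 ± 0.36 (edgeR adjusted p 0.0527, with the block 0.0133).

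The IL-1 agonists and Il12a lay in the other direction and did not pass. Il1a, which encodes IL-1 alpha, stood at 50.8, 26.6 and 42.6 CPM in MN1, at 6.85, 25 and 3.43 CPM in MN1pQdel and at 11.0 CPM in noTD. Il12a, the p35 chain shared by IL-12 and IL-35, stood at 10.1, 8.56 and 8.12 CPM in MN1, at 1.25, 5.14 and 0.721 CPM in MN1pQdel and at 1.45 CPM in noTD. In both genes all MN1 libraries lay above all others, with MN1pQdel replicate 2 nearest to them. Their log2 fold changes were 1.76 ± 0.69 and 1.91 ± 0.69 (edgeR adjusted p 0.116 and 0.0947). Without MN1pQdel replicate 2 they were 2.95 and 3.16, with adjusted p 0.0031 and 0.00135. Il1b, which encodes IL-1 beta and lies 54.6 kb from Il1a, stood at 77.4, 39.8 and 65.7 CPM in MN1, at 25.2, 55.2 and 21.2 CPM in MN1pQdel and at 133 CPM in noTD. Here noTD was the highest library and the transduced groups overlapped (log2 fold change 0.84 ± 0.41, edgeR adjusted p 0.176, and 0.0114 without MN1pQdel replicate 2). The exons of Il1b overlap the antisense gene Il1bos, and whether counting used strand is not known here.

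Of the type 2 cytokines, named after their values were seen, Il4 stood at 1.93, 0.648 and 1.59 CPM in MN1, at 5.82, 1.31 and 4.92 CPM in MN1pQdel and at 4.93 CPM in noTD. Il13, its neighbour at 12.7 kb, stood at 4.80, 2.99 and 2.82 CPM in MN1, at 8.36, 2.68 and 6.29 CPM in MN1pQdel and at 6.60 CPM in noTD. MN1pQdel replicate 2 lay inside the MN1 range for Il4 and below it for Il13, and the other MN1pQdel libraries and noTD lay above all MN1 libraries for both. Log2 fold changes were -1.55 ± 0.64 for Il4 (edgeR adjusted p 0.126, with the block 0.0214) and -0.72 ± 0.45 for Il13 (0.279). Il5, the eosinophil growth factor, had 14, 10 and 21 counts in MN1, 0, 42 and 0 counts in MN1pQdel replicates 1 to 3 and 1 count in noTD, so 1 library set its group level. The 0 counts allow up to 0.0488 and 0.0745 CPM (3 counts). The 6 tested ligands not yet given (Il27, Il7, Il18, Il15, Il23a and Il17d) had edgeR log2 fold changes from -0.96 to 1.05, and none passed. Il17d, at 14, 21 and 16 counts in MN1 and 12, 9 and 7 in MN1pQdel, lay nearest to the threshold. Its log2 fold change was 1.05 ± 0.32 (edgeR adjusted p 0.0657), and it was called with library totals alone. Il17d passed the filter on low counts only through MN1, where it was higher.

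Among the receptor chains, 3 rose. Il9r (chromosome 11, 32187541 to 32200279, minus strand) encodes the chain that binds IL-9, a growth factor for mast cells and T cells, and pairs with Il2rg. It stood at 22.7, 12.8 and 22.8 CPM in MN1, at 3.16, 6.90 and 2.73 CPM in MN1pQdel and at 5.62 CPM in noTD. All MN1 libraries lay above all others. The rise was 4.53-fold (log2 fold change 2.18 ± 0.42, edgeR adjusted p 0.0211). It was called in 2 of 6 leave-out fits (without MN1 replicate 2 and without MN1pQdel replicate 2), with adjusted p from 0.00188 to 0.0925. Its ligand gene Il9 had no count in any library. Of the markers of T and innate lymphoid cells, which also carry this receptor, 1 of 7 tested rose, Lck, at 4.42 to 5.20 CPM in MN1 and 0.298 to 1.80 CPM in MN1pQdel (log2 fold change 2.48 ± 0.66, edgeR adjusted p 0.0469). The 12 listed genes summed to 18.2 to 23.9 CPM in MN1, 11.5 to 15.2 CPM in MN1pQdel and 9.87 CPM in noTD. Zbtb16, the highest of them, stood at 10.3 to 14.1 CPM in MN1 and 6.47 to 7.95 CPM in MN1pQdel, and Cd3e, which defines T cells, at 0.0424 to 0.0976 CPM in MN1. Their part in the rise was not tested.

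Il17re and Il31ra rose from low levels, and both passed the filter on low counts only through MN1, where they were higher. Il17re (chromosome 6, 113458484 to 113470758, plus strand), the receptor chain for IL-17C, stood at 1.20, 0.972 and 0.742 CPM in MN1, at 0.163, 0.430 and 0.149 CPM in MN1pQdel and at 0.356 CPM in noTD. Its log2 fold change was 1.95 ± 0.48 (edgeR adjusted p 0.0371), and that of its ligand gene Il17c was -1.58. Il17c and Il17re each passed the filter only through the group where it was higher, so their opposite signs are not read as a result. Il31ra (chromosome 13, 112519898 to 112594360, minus strand), which binds IL-31, had 10, 33 and 34 counts in MN1 (0.244, 0.764 and 0.721 CPM), 8, 7 and 3 counts in MN1pQdel (0.130, 0.143 and 0.0745 CPM) and 2 counts in noTD (0.0548 CPM). In Il17re and Il31ra the MN1 libraries lay above all others. The log2 fold change of Il31ra was 2.26 ± 0.54 (edgeR adjusted p 0.0349, and 0.0665 without replicate 2 of both groups). Of the 6 leave-out fits, Il17re was called in 1 (without MN1pQdel replicate 2; adjusted p 0.00448 to 0.141) and Il31ra in 2 (without MN1 replicate 1 and without MN1pQdel replicate 2; 0.0282 to 0.122).

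Other receptor chains lay higher in MN1 without passing. Il20ra, a chain for IL-19, IL-20 and IL-24, stood at 6.73, 3.98 and 9.23 CPM in MN1, at 0.423, 2.86 and 0.0248 CPM in MN1pQdel (26, 140 and 1 counts) and at 0.712 CPM in noTD. The MN1pQdel libraries differed from each other over 2 orders of magnitude, and the log2 fold change was 2.58 ± 1.14 (edgeR adjusted p 0.147, and 0.00695 without MN1pQdel replicate 2). Il2ra, the alpha chain of the IL-2 receptor (named after its values were seen), stood at 18.1, 5.02 and 19.1 CPM in MN1, at 4.95, 3.25 and 3.63 CPM in MN1pQdel and at 7.02 CPM in noTD. MN1 replicate 2 lay just above the MN1pQdel libraries and below noTD (log2 fold change 1.82 ± 0.50, edgeR adjusted p 0.0507, with the block 0.0381, without MN1 replicate 2 0.0261). Its neighbour Il15ra, at 12.1 kb (also named afterwards), stood at 14.0, 12 and 13.0 CPM in MN1, at 4.26, 11.2 and 2.66 CPM in MN1pQdel and at 5.07 CPM in noTD (1.09 ± 0.50, edgeR adjusted p 0.157). Il21r, the IL-21 receptor chain, had a similar order with MN1pQdel replicate 2 as the highest library: 19.3, 17.1 and 20.7 CPM in MN1, 7.00, 22.2 and 6.58 CPM in MN1pQdel and 11.3 CPM in noTD (0.67 ± 0.47, edgeR adjusted p 0.332).

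Receptor chains that fell included Il4ra, the chain for IL-4 and IL-13 (chromosome 7, 125552120 to 125579474, plus strand). It stood at 127, 91.7 and 106 CPM in MN1, at 382, 161 and 337 CPM in MN1pQdel and at 483 CPM in noTD. MN1pQdel replicate 2 was the lowest of its group and still above all MN1 libraries. The log2 fold change was -1.45 ± 0.32 (edgeR adjusted p 0.0293), called only without MN1pQdel replicate 2 among the 6 leave-out fits (0.00093 to 0.11). Il13ra1, the partner that forms the second receptor for these ligands (named afterwards), stood at 3.93, 3.73 and 5.01 CPM in MN1, at 7.04, 7.55 and 4.72 CPM in MN1pQdel and at 15.6 CPM in noTD (-0.62 ± 0.26, edgeR adjusted p 0.132). Il2rg, the common gamma chain and the second highest member per kilobase, stood at 125, 93.5 and 127 CPM in MN1, at 181, 110 and 203 CPM in MN1pQdel and at 199 CPM in noTD. Here the groups overlapped through MN1pQdel replicate 2 (-0.53 ± 0.25, edgeR adjusted p 0.159, with the block 0.0359).

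Of the 2 chains of the IL-6 receptor, the ligand-binding chain fell and gp130 did not pass. Il6ra (chromosome 3, 89864059 to 89913196, minus strand), the chain that binds IL-6, stood at 20.7, 26.7 and 20.8 CPM in MN1, at 46.6, 59.5 and 43.2 CPM in MN1pQdel and at 59.1 CPM in noTD. All MN1 libraries lay below all others, and replicate 2 was the highest of both transduced groups. The log2 fold change was -1.14 ± 0.18, a 2.20-fold fall (edgeR adjusted p 0.0113), called in 4 of 6 leave-out fits (0.00433 to 0.0591). Il6st, the signalling chain gp130 shared by the IL-6 family, stood at 21.2, 21.7 and 31.2 CPM in MN1, at 9.52, 29.8 and 13.6 CPM in MN1pQdel and at 9.48 CPM in noTD. The groups overlapped through MN1pQdel replicate 2 alone, and the log2 fold change was 0.48 ± 0.42 (edgeR adjusted p 0.43, and 0.0158 without that library). Il11ra1, the IL-11 chain, which also pairs with gp130, stood at 20.5 to 25.3 CPM in MN1, 16.2 to 25.9 CPM in MN1pQdel and 15.8 CPM in noTD (0.16 ± 0.20, edgeR adjusted p 0.592).

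A group of 6 receptor genes of the IL-1 family lie next to each other on chromosome 1 with no other protein-coding gene between them. Their order is Il1r2, Il1r1, Il1rl2, Il1rl1, Il18r1 and Il18rap. They did not all lie in the same direction. Il1r2, the decoy receptor for IL-1 (40074079 to 40125231, plus strand), fell: 27.0, 24.8 and 19.7 CPM in MN1, 78.0, 72.9 and 39.1 CPM in MN1pQdel and 98.3 CPM in noTD, with a log2 fold change of -1.42 ± 0.28 (edgeR adjusted p 0.0213). Il18rap, the signalling chain of the IL-18 receptor (40515362 to 40551705, plus strand), fell: 59.6, 62.9 and 69.2 CPM in MN1, 144, 83.6 and 186 CPM in MN1pQdel and 135 CPM in noTD, with a log2 fold change of -1.12 ± 0.28 (edgeR adjusted p 0.0379). For both, the groups did not overlap. Of the 6 leave-out fits, Il1r2 was called without MN1pQdel replicate 2 and without MN1pQdel replicate 3 (0.015 to 0.0866) and Il18rap without MN1pQdel replicate 2 alone (0.00114 to 0.125). Il1r1, the signalling IL-1 receptor and next to Il1r2 at 99.8 kb, lay the other way: 5.49, 6.16 and 4.98 CPM in MN1, 2.78, 4.26 and 2.26 CPM in MN1pQdel and 2.55 CPM in noTD (0.83 ± 0.29, edgeR adjusted p 0.0902, with the block 0.0428; named afterwards).

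Il1rl1 and Il18r1, which lie 0.137 kb apart, followed replicate 2. Il1rl1 (40429570 to 40465415, plus strand), which encodes the IL-33 receptor ST2 of mast cells and basophils, stood at 515, 197 and 498 CPM in MN1, at 1587, 446 and 2879 CPM in MN1pQdel and at 1680 CPM in noTD. Il18r1, the ligand-binding chain of the IL-18 receptor, stood at 7.44, 4.26 and 8.59 CPM in MN1, at 26.1, 7.10 and 28.2 CPM in MN1pQdel and at 28.2 CPM in noTD. In both genes replicate 2 was the lowest library of each transduced group, and MN1pQdel replicate 2 lay inside the MN1 range. The log2 fold changes were -2.04 ± 0.68 for Il1rl1 and -1.61 ± 0.54 for Il18r1 (edgeR adjusted p 0.0798 and 0.0792). With the replicate block the adjusted p was 0.0191 and 0.024, and without MN1pQdel replicate 2 it was 0.00721 and 0.00368. Il1rap, the accessory chain that pairs with Il1rl1, Il1r1 and Il1rl2, stood at 21.9 to 25.8 CPM in MN1, 13.6 to 25.1 CPM in MN1pQdel and 14.4 CPM in noTD (0.34 ± 0.23, edgeR adjusted p 0.319). Mast cell and basophil markers were also lowest in replicate 2 of each group, as were 8 of the 12 marker lists in all. Basophil markers, 5 of 6 of which fell, summed to 418 to 886 CPM in MN1, 1278 CPM in MN1pQdel replicate 2, 4048 and 4757 CPM in MN1pQdel replicates 1 and 3 and 4339 CPM in noTD.

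**Figure D3:**
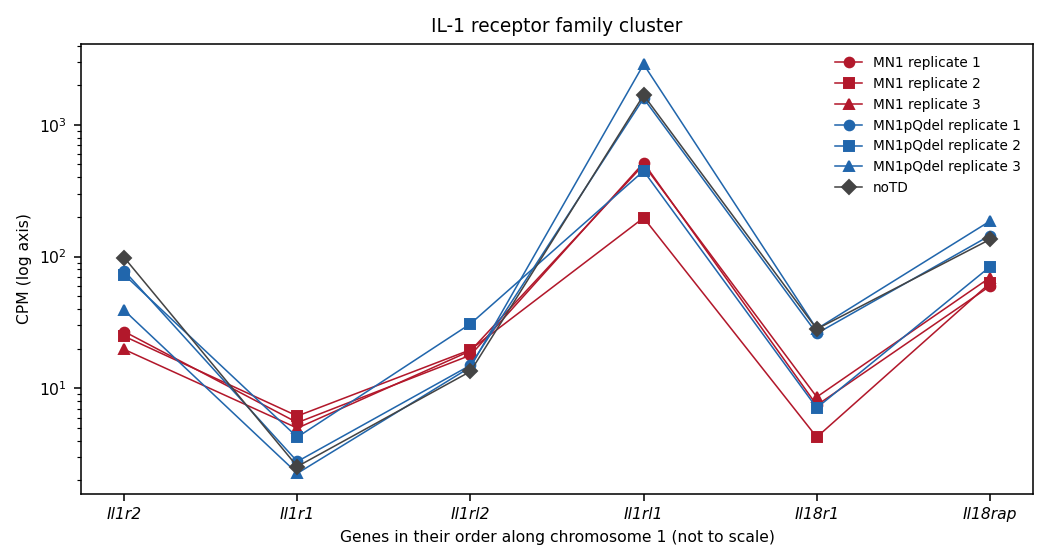
CPM on a log axis of the 6 neighbouring IL-1 receptor family genes in their order on chromosome 1 (spacing not to scale), 1 line per library. At Il1rl1 and Il18r1 the line of MN1pQdel replicate 2 (446 and 7.10 CPM) runs with the MN1 libraries, and at Il1r2 (72.9 CPM) with the MN1pQdel libraries.

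Il17ra, the shared chain of the IL-17 receptors (chromosome 6, 120463247 to 120487559, plus strand), stood at 120, 134 and 130 CPM in MN1, at 195, 158 and 189 CPM in MN1pQdel and at 224 CPM in noTD. Its fall was small and the groups did not overlap (log2 fold change -0.51 ± 0.12, edgeR adjusted p 0.0349, 0.0832 with library totals alone, and 0.00458 to 0.129 over the leave-out fits). The IL-10 receptor chains did not pass. Il10ra, the chain that binds IL-10, stood at 24.6, 12.2 and 40.0 CPM in MN1, at 48.9, 24.6 and 79.0 CPM in MN1pQdel and at 71.2 CPM in noTD. Each MN1 library lay near a factor of 2 below the MN1pQdel library of the same number, and the groups overlapped (-1.01 ± 0.53, edgeR adjusted p 0.207, with the block 0.00733). Il10rb, its shared partner, stood at 35.8 to 50.8 CPM in MN1, 51.1 to 69.1 CPM in MN1pQdel and 67.0 CPM in noTD (-0.43 ± 0.18, edgeR adjusted p 0.125). Il12rb2, a chain of the IL-12 receptor, stood at 8.82 to 12.3 CPM in MN1, 4.79 to 14.8 CPM in MN1pQdel and 10.2 CPM in noTD (-0.07 ± 0.41, edgeR adjusted p 0.908), and its sign depended on the scaling and on single libraries. Il18bp, the soluble inhibitor of IL-18 (named afterwards), stood at 3.87 to 5.83 CPM in MN1, 6.57 to 9.87 CPM in MN1pQdel and 11.3 CPM in noTD (-0.78 ± 0.26, edgeR adjusted p 0.0802, with the block 0.0296).

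The number of genes called depended on replicate 2, as it did over the whole table. MN1pQdel replicate 2 lay inside the MN1 range for 12 of the 49 tested genes, beside 36.6% of all genes tested. Without this library 13 of the 49 rose and 17 fell, beside 20.6% and 21.3% of all genes tested in that fit. Without replicate 2 of both groups 12 rose and 12 fell, beside 17.4% and 17.4%. Libraries with the same number deviated together from their group means, and with the replicate number as a block 5 rose and 16 fell, beside 13.7% and 17% of all genes tested. The genes added by the block were Il1r1 and Il2ra among those that rose and Il10ra, Il18bp, Il18r1, Il1rl1, Il1rn, Il2rg, Il4 and Il6 among those that fell. Leaving out any other single library left few calls in these genes and in the whole table. Without MN1 replicate 1, 1 rose and 1 fell, beside 1.27% and 2.87% of all genes tested, and without MN1 replicate 2, 2 rose and 2 fell, beside 1.8% and 2.67%. Without MN1 replicate 3, 0 rose and 2 fell, beside 0.855% and 2.49%. Without MN1pQdel replicate 1, 0 rose and 3 fell, beside 0.631% and 2.73%, and without MN1pQdel replicate 3, 0 rose and 3 fell, beside 1.69% and 4.51%.

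**Figure D4:**
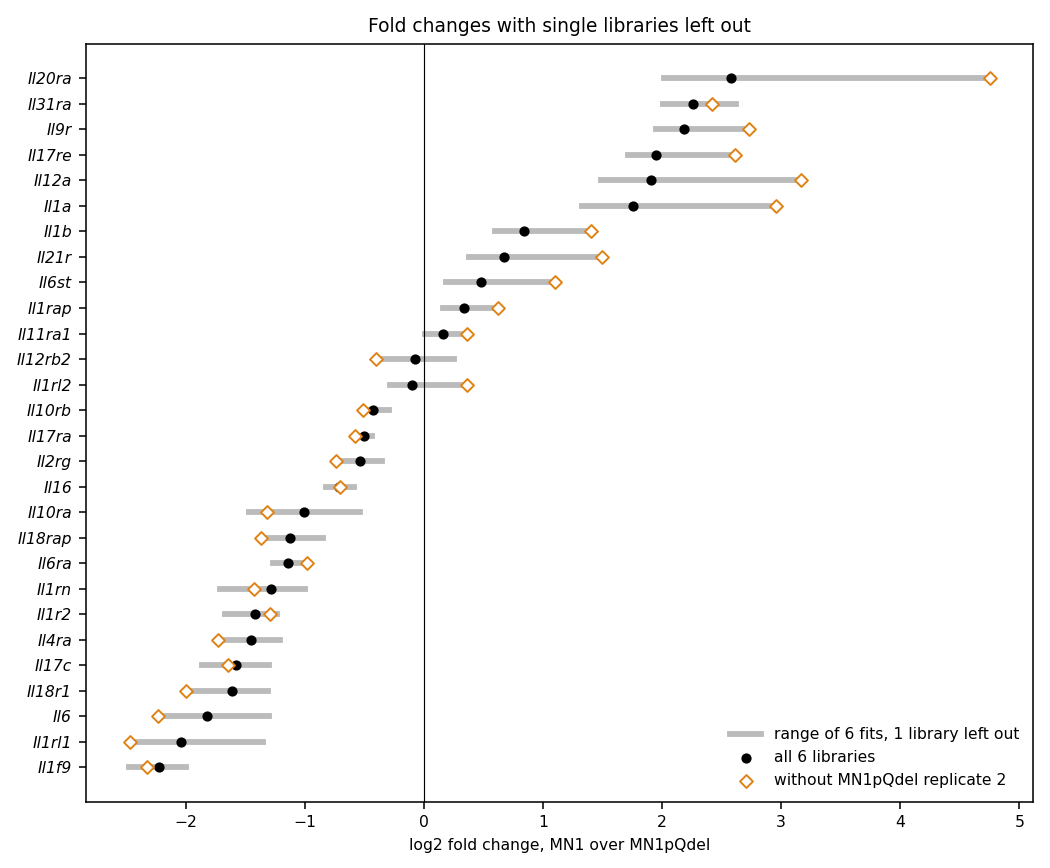
Log2 fold change of MN1 over MN1pQdel for the 28 genes chosen by the naming rule: black points from all 6 libraries, grey bars the range over the 6 fits that left out 1 library, open diamonds the fit without MN1pQdel replicate 2. The diamonds of Il20ra, Il12a and Il1a lie farthest from their black points, and the bar of Il1f9 spans -2.48 to -2.0.

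Against the single noTD library there was no test, and a difference of at least 1 in log2 CPM (prior count of 2) was counted. Genes entered with at least 10 counts in noTD or in every library of the transduced group. Both transduced groups were set against the same library. In MN1, 12 of 49 genes were higher than noTD by that much and 18 were lower, beside 10.4% and 17.2% of all genes. By role these were 5 higher and 8 lower of 17 ligands, and 7 higher and 9 lower of 30 receptor chains. Il5, Il17d, Il23a and Il31ra, with 1, 3, 5 and 2 counts in noTD, entered only through their MN1 counts. All are among those higher, which this rule favours, and none of them entered for MN1pQdel. The shares of all genes followed the same rule. In MN1pQdel, 0 of 45 genes were higher and 2 were lower, beside 0.987% and 4.16% of all genes. These were Il1b, at -2.11, and Il13ra1, at -1.30. The differences of MN1 from noTD were -3.12 for Il1f9, -2.18 for Il1rl1, -2.17 for Il4ra, 2.58 for Il12a and 3.06 for Il20ra, and those of MN1pQdel were -0.88, -0.41, -0.81, 0.21 and -0.74 for the same genes. The noTD level lay inside the MN1pQdel range for 27 of the 49 tested genes and inside the MN1 range for 2, beside 59.2% and 18.6% of all tested genes.

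**Figure D5:**
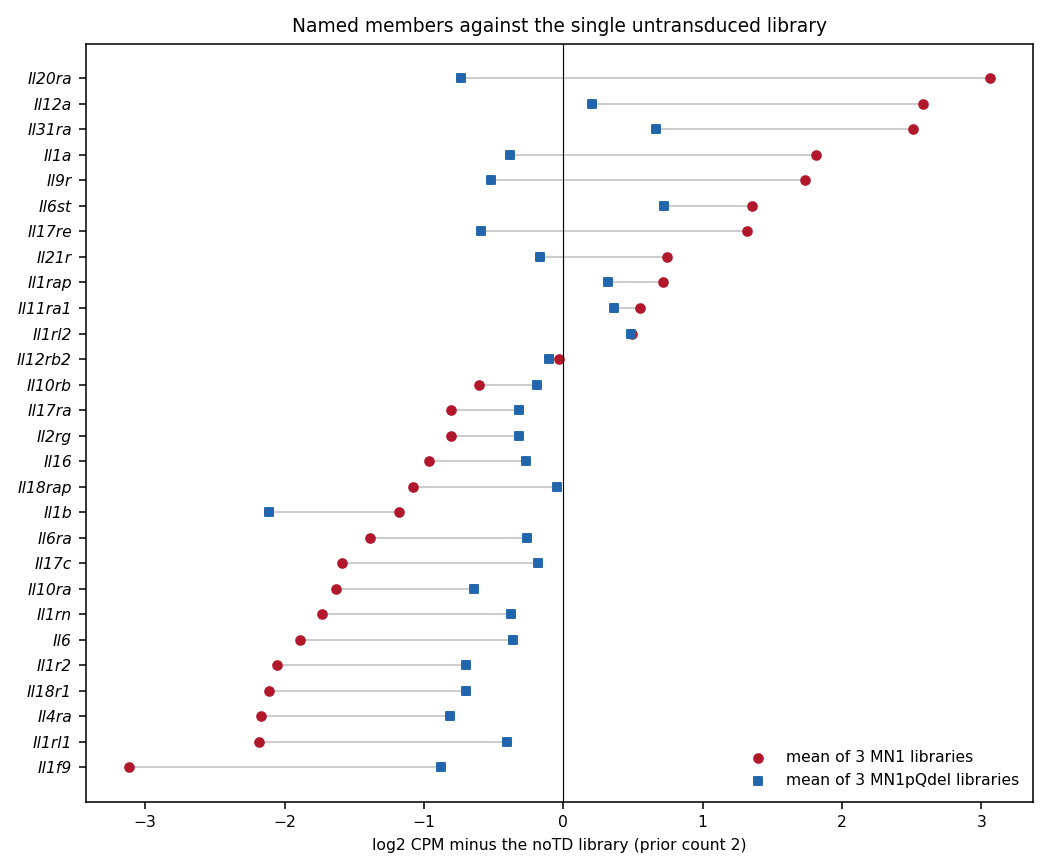
Difference in log2 CPM (prior count of 2) between the mean of 3 MN1 libraries (red) or of 3 MN1pQdel libraries (blue squares) and the 1 noTD library for the 28 genes chosen by the naming rule. Il20ra lies at 3.06 for MN1 and -0.74 for MN1pQdel, and Il1b lies below 0 for both.

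Many ligands were at or near 0. No count was found for 9 ligands (Il17a, Il17b, Il1f10, Il1f5, Il20, Il22, Il24, Il31 and Il9) and for 1 receptor chain, Il22ra1, and 3 counts, the number that a count of 0 allows, are worth 0.0488 to 0.0822 CPM. Il3, whose protein is in the medium, had 2, 0 and 2 counts in MN1 and 0 elsewhere. Of the 9 genes with 10 or more counts that were not tested, Il2rb, the beta chain of the IL-2 and IL-15 receptors, had a total of 25 counts in MN1 and of 1 in MN1pQdel, a depth-scaled ratio of 28.7 with a 95% counting interval of 4.69 to 1177. Il10, an inhibitory cytokine, had 35 and 7 counts, a ratio of 5.73 (2.51 to 15.3). For the other 7 the interval of the ratio held 1. These intervals cover counting error only.

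The genes that carry the signal were described from lists, again in MN1 against MN1pQdel and beside the 6.08% and 11.1% above. Of 11 JAK kinases and STAT factors, 0 rose and 2 fell: Jak2 (-1.56 ± 0.29) and Jak1 (-1.02 ± 0.19), with edgeR adjusted p of 0.0181 and 0.0195, while the median of the list was -0.15. Of 13 genes of the IL-1, IL-18 and IL-33 relay, 0 rose and 4 fell, with a median of -0.48: Irak3, a brake on the pathway (-1.33 ± 0.10), Irak2 (-1.02 ± 0.16), Irak4 (-0.76 ± 0.11) and the adaptor Myd88 (-0.49 ± 0.09), with edgeR adjusted p from 0.00391 to 0.0187. Of 12 inflammasome and processing genes, 0 rose and 5 fell, with a median of -0.63. Among them were the adaptor Pycard (-0.84 ± 0.11) and the sensor genes Naip5 (-1.0 ± 0.18), Naip2 (-0.92 ± 0.10) and Naip6 (-0.89 ± 0.20), close copies that can share reads, with edgeR adjusted p from 0.0054 to 0.031. The last list, of 19 genes, held interleukin family members and chains with other names, and also Cish and Sh2b3, which are neither. Of these 19, 16 were tested, 2 rose and 6 fell, with a median of -1.16. Csf2rb, the beta chain shared by the IL-3, IL-5 and GM-CSF receptors, and its near copy Csf2rb2, which can share reads with it, fell by 1.94 and 2.76 on the log2 scale (edgeR adjusted p 0.042 and 0.0481, called only without MN1pQdel replicate 2 among the leave-out fits). Ifnlr1, the interferon lambda receptor, fell by 3.03 (edgeR adjusted p 0.00733). Ctf1, a cytokine of the IL-6 family, rose by 1.80 from low levels, 0.114 to 0.184 CPM in MN1pQdel and 0.44 to 0.61 CPM in MN1 (edgeR adjusted p 0.0219). Ctf1 passed the filter on low counts only through MN1, where it was higher, and was called in 1 of the 6 leave-out fits. Of the genes named from these lists, Irak3, Pycard, Naip2 and Ifnlr1 were called in each of the 6 leave-out fits.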

How the data were processed

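Poly(A) RNA of 7 libraries was read from both ends at 150 bases, per the labels. The values are estimated counts, which the authors deposited in 1 table with a row per gene symbol, before any normalisation. The submitters' processing notes name kallisto, DESeq2 and GRCm38; their versions, the transcript index and the strand setting were not known here. Of the values, 32.5% were not whole and were rounded. Sample titles gave groups and replicate numbers. MN1 and MN1pQdel (3 libraries each) were compared with edgeR 4.0.16 in R 4.3.3 (filterByExpr, TMM, quasi-likelihood test, Benjamini-Hochberg over 14808 genes, threshold 0.05), which was tested on simulated data. The standard error (SE) is the absolute log2 fold change divided by the square root of F. The noTD library entered no test.

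The naming rule took every gene past the threshold, every gene with a mean of at least 10 CPM, every gene with at least 100 counts and a log2 difference of at least 2 from noTD, and Il6ra and Il6st. It named 28 of the 79 genes. Members, lists and motifs were chosen with earlier results of these data known. From each pathway list, up to 4 genes past the threshold with the largest change were named. Motifs were searched in the 250 bases upstream of each start. Coordinates and transcript lengths come from GENCODE M21, and promoters from RefSeq on GRCm38.p6.

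Replicates were distinct (chi-square per gene between 40.3 and 323 within groups). After subtracting group means, libraries of the same number correlated across genes at 0.367, 0.258 and 0.320 and those of different numbers at -0.282 to -0.0599. A pairing by number is therefore read from the data alone, and the main fit did not use it. The replicate block, which uses it, is given as an alternative. Subtracting group means in itself pushes the values of different numbers to the sign opposite to those of the same number. Alternatives were library totals in place of TMM, no filter, DESeq2 1.42.0, the replicate block, and leaving out libraries.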

Additional observations from a re-analysis of the deposited data

How the results depend on the processing

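Over all genes tested, 901 rose and 1643 fell in MN1 against MN1pQdel. Library totals in place of TMM moved the median of all genes by 0.20 on the log2 scale and the share of genes that rose among all calls from 35.4% to 61.8%, and gave 1847 that rose. DESeq2 gave 1906 that rose, and leaving out replicate 2 of both groups gave 2630 that rose and 2617 that fell. With the replicate number as a block 2022 rose and 2523 fell. The fits that left out 1 library gave 95 to 3146 that rose and 378 to 3248 that fell, the highest of both without MN1pQdel replicate 2.

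Of the ligands, 0 rose and 3 fell. The number that rose was 1 with library totals, 2 with DESeq2, 4 without the replicate 2 pair and 0 to 4 over the leave-outs. The number that fell was 5 with DESeq2, 6 with the replicate block and 1 to 7 over the leave-outs. Of the receptor chains, 3 rose and 5 fell. The number that rose was 5 without the filter on low counts, 5 with DESeq2, 5 with the replicate block, 8 without the replicate 2 pair and 0 to 9 over the leave-outs, and the number that fell was 9 with the block, 8 without the pair and 0 to 9 over the leave-outs. Against noTD, 1 ligand and 1 receptor chain were lower in MN1pQdel by at least 1 in log2 CPM, 1 to 3 and 1 to 4 over the leave-outs, and 2 receptor chains with a prior count of 0.5. The number of receptor chains higher in MN1pQdel was 0, and 0 to 1 over the leave-outs.

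The sign turned in at least 1 alternative for 6 of the 49 tested genes, 0 of them past the threshold: Il15, Il18 and Il22ra2, and the following 3 of the 36 genes followed one by one. Il12rb2 (-0.07) was 0.15 with library totals, 0.054 with the replicate block and -0.40 to 0.26 over the leave-outs. Il1rl2 (-0.10) was 0.081 with library totals, 0.36 without the replicate 2 pair and -0.28 to 0.36 over the leave-outs. Il5 (0.24) was -0.37 without MN1pQdel replicate 1, -0.30 without MN1pQdel replicate 3 and 7.00 without MN1pQdel replicate 2, where its group has no count, so that this fitted value depends on the prior count. The cause was not tested. Among the interleukin and receptor genes given with values, the block added calls only where a blocked adjusted p stands beside the result. It changed no other call of these genes. The marker Zbtb16 was called with the block (edgeR adjusted p 0.037) and not without it (0.061). With 3 libraries a group, an exact two-sided permutation test of a single gene cannot go below 0.1, and genes below about 1 CPM rest on few counts.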
